A study of Homo sapiens with 6 samples.

Results

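Argonaute 2 (Ago2), the protein of the RNA-induced silencing complex (RISC) that holds a microRNA (miRNA), was immunoprecipitated from HepG2 cells, a cell line from a human liver tumor, and the RNA that came with it was compared with the total RNA of the same kind of cells. The comparison rests on 2 libraries of cells that had received no mimic: 1 Ago2-IP library and 1 total RNA library. Genes with an RPKM (reads scaled to the length of the gene and the mapped reads of the library) above 0 in both libraries were compared, which were 14101 of the 21863 gene symbols listed, of which 10861 had an RPKM of at least 1 in total RNA. Most single genes described are among the latter, and the RPKM or read number is given for those below. A further 870 symbols were above 0 in Ago2-IP alone, 1123 in total RNA alone and 5769 in neither.

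The series holds 4 more libraries, an Ago2-IP and a total RNA library from cells 24 hours after transfection with 5 nM of a *miR-195* mimic and the same pair for a *miR-497* mimic. The labels give a time of 0 hours for the non-transfected cells (NT), which got no mimic. All Ago2-IP libraries used the same anti-Ago2 antibody source (Wako). With 1 library a side, the non-transfected comparison has no replicate check, and its single values carry counting intervals only. The mimic pairs are given beside it as the same comparison in other cultures. They are not replicates of the non-transfected cells. No control precipitation with an unrelated antibody was analysed here. The libraries were made from far less Ago2-IP RNA than total RNA, and the methods name preparation with or without poly-A selection without assigning it to libraries. Differences between Ago2-IP and total RNA and differences in library preparation therefore cannot be told apart.

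A miRNA guides Ago2 to messenger RNAs mainly through its seed, the bases at positions 2 to 8, which pair with matching sites in the 3′UTR. Ago2 recruits the GW182 proteins (*TNRC6A*, *TNRC6B* and *TNRC6C*), which bring the enzymes that shorten the poly-A tail and remove the cap. RNA precipitated with Ago2 can thus hold miRNAs, messages under their control and whatever else binds to the protein or to the beads. Liver cells are known for *miR-122*, and many dividing cells for the cluster that encodes *miR-17*, *miR-18a*, *miR-19a*, *miR-20a*, *miR-19b* and *miR-92a*.

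The mature sequences on which the site results below turn are shown with the seed in capitals (RefSeq, GRCh38.p14). The first group shares the seed of the transfected mimics.

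miR-16-5p: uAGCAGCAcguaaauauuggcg
miR-195-5p: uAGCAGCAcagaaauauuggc
miR-497-5p: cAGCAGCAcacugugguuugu

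The second group comes from the *miR-17/92* cluster and holds 4 seeds, 1 for *miR-17* and *miR-20a*, 1 for *miR-19a* and *miR-19b*, 1 for *miR-92a* and 1 for *miR-18a*.

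miR-17-5p: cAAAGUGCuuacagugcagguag
miR-20a-5p: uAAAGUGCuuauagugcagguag
miR-19a-3p: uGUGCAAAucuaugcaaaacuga
miR-19b-3p: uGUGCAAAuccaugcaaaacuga
miR-92a-3p: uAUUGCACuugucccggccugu
miR-18a-5p: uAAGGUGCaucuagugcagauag

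The liver miRNA and another broadly expressed one are shown for comparison.

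miR-122-5p: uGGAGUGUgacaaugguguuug
let-7a-5p: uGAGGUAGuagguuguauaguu

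The cells matched their label. All 10 hepatocyte markers looked at had an RPKM of at least 1 in total RNA. They ranged from 1.52 to 4884 for *AFP* (alpha-fetoprotein), with a median of 511. In bulk RNA, fewer cells of a type and less RNA per cell cannot be told apart. Of the markers of other cell types, 0 of 4 endothelial, 2 of 5 fibroblast or stellate and 2 of 5 leukocyte genes reached 1. The highest of these were *ACTA2* (smooth muscle actin) at 22.1 and *LYZ* (lysozyme) at 749 RPKM, and *LYZ* had 31.0 in Ago2-IP.

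The median ratio of Ago2-IP to total RNA was 0.326, and the middle 95% of genes lay between 0.0747 and 5.49. The ratio was above 1 for 1963 genes (13.9%). RPKM counts all mapped reads of a library, and with the lengths of annotated transcripts the listed genes held an estimated 99.5% of the mapped reads of total RNA but 27.4% in Ago2-IP. Reads inferred gene by gene, for 12698 genes only, gave 60.8% and 17.0%. By annotated length, the mimic pairs had 96.0% against 35.98% (*miR-195*) and 98.5% against 23.6% (*miR-497*), and the median ratios were 0.469 and 0.260. In the following, log2 ratios are given relative to the median over all genes of the same library pair, and a gene is called higher or lower when it lay at least 2-fold from that median. In non-transfected cells 3206 of 14101 genes (22.7%) were higher and 2785 (19.8%) lower. Without this centring, 944 genes had an RPKM at least 2-fold higher in Ago2-IP and 9745 at least 2-fold lower, so every direction below is relative to the typical gene.

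Read numbers were inferred from the steps of the RPKM values for 12698 genes, and 95% counting intervals below come from these. They cover counting error only. Of 11502 genes with inferred reads in both libraries, 2227 had under 10 in 1 of them. Among genes of at least 1 RPKM in total RNA with inferred reads, the interval lay wholly above the median for 992 of 999 higher genes and wholly below it for 2148 of 2170 lower genes. Over the 10820 genes of this level measured in all 3 pairs, the ratios of non-transfected cells correlated with those of the *miR-195* pair (Spearman 0.82) and the *miR-497* pair (0.88), a description across genes, which are not independent replicates. Of 1248 higher genes, 1201 lay above the median with both mimics and 552 (44.2%) were at least 2-fold above it with both. Of 2630 lower genes, 2504 lay below the median and 1384 (52.6%) at least 2-fold below it with both.

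**Figure D1:**
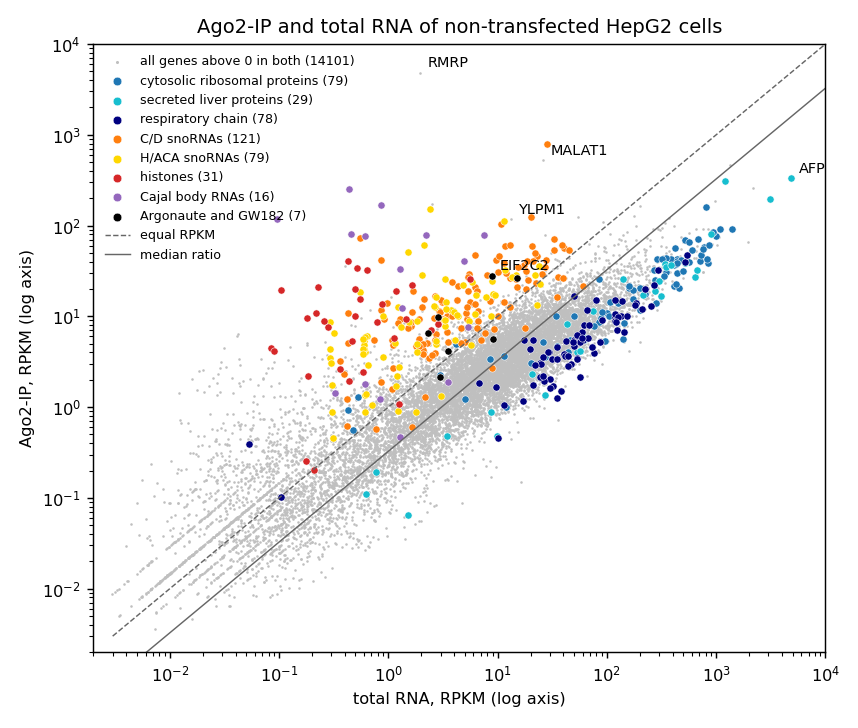
RPKM in Ago2-IP (vertical) against total RNA (horizontal) of non-transfected cells, both on log axes, 1 point a gene above 0 in both, with gene lists in color. The solid line is the median ratio of 0.326, and snoRNAs, histones and *RMRP* lie mostly above it while ribosomal, respiratory chain and secreted liver protein genes lie mostly below.

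The 3 pairs were also fitted together for genes above 0 in all 6 libraries, with the condition as block (limma on log2 RPKM centred on each library's median, Benjamini-Hochberg adjusted p below 0.05). Of 13298 genes, 3110 were higher (23.4%) and 3593 lower (27%) in Ago2-IP. Without centring the split was 643 higher and 9791 lower, and without the non-transfected pair 1781 and 2055. These p-values measure the spread of the Ago2-IP difference among 3 different treatments, each with 1 library pair. For each gene, limma drew this spread towards a trend over all genes fitted, so they do not rest on the gene's own spread alone.

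*EIF2C2*, the gene of Ago2 itself, had 8.89 RPKM in total RNA and 28.1 in Ago2-IP of non-transfected cells, a ratio of 3.16 (counting interval 2.90 to 3.44, from 770 and 1655 reads). With *miR-195* the values were 7.11 and 34.2 RPKM, and with *miR-497* 7.42 and 10.2. Ago2-IP was above total RNA in each pair. Over the 3 pairs the log2 difference was 3.05 ± 0.23 (SE, limma adjusted p = 5.2e-05). The library is of RNA, so these values describe the message of Ago2 and not the precipitated protein.

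The messages of its partner proteins lay on the same side. *TNRC6B* had 2.85 RPKM in total RNA and 9.80 in Ago2-IP (ratio 3.44), *TNRC6C* 2.32 and 6.58 (2.84) and *TNRC6A* 14.9 and 26.7 (1.79). Of the other Argonautes, *EIF2C3* had a ratio of 1.19 (1.01 to 1.41), *EIF2C4* of 0.712 and *EIF2C1* of 0.617. Of the 7 Argonaute and GW182 genes 6 were at least 2-fold above the median ratio and 0 below, with a median log2 ratio of 2.46, and the limma fit called all 7 higher. The median was 2.17 in the *miR-195* pair and 2.00 in the *miR-497* pair. On RPKM as deposited the direction of *EIF2C1* turned, with a limma log2 difference of -0.61, and without the non-transfected pair its adjusted p was 0.074 in limma. Compared with protein-coding genes in the same of 5 classes of transcript length and 5 of expression, the 7 genes lay at a median of 2.32.

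Genes that make miRNAs lay closer to the median. *DICER1*, which cuts the precursor hairpin, had 20.2 RPKM in total RNA and 11.3 in Ago2-IP, a log2 ratio of 0.78, and was called higher by limma (0.85 ± 0.21 SE, adjusted p = 0.010), though below 0 without centring (-0.73) and with an adjusted p of 0.098 without the non-transfected pair. *DROSHA* and *DGCR8*, which form the nuclear Microprocessor, had log2 ratios of 0.41 and 0.52. *XPO5*, which exports precursors, lay at 0.05. *PRKRA*, which binds DICER1, was the 1 gene of the 6 that lay 2-fold below the median (47.7 to 7.44 RPKM, log2 ratio -1.07), and its limma call was lost without the non-transfected pair (adjusted p = 0.19). *TARBP2*, also a partner of DICER1, lay below the median in non-transfected cells (-0.85) and with *miR-497* (-1.08) but above it with *miR-195* (1.29).

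**Figure D2:**
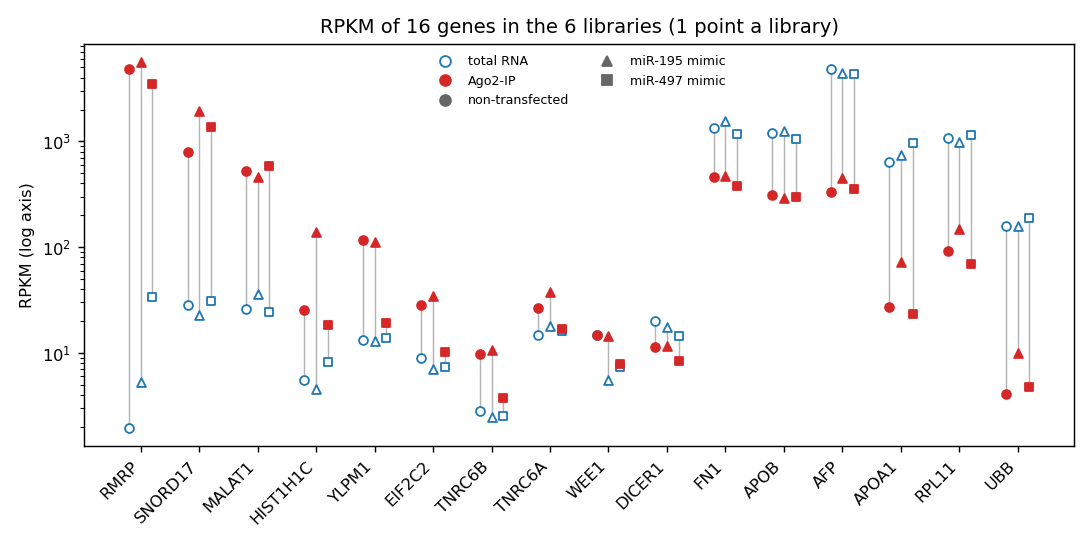
RPKM (log axis) of 16 genes in the 6 libraries, with total RNA as open and Ago2-IP as filled symbols and a line joining the libraries of a condition. Ago2-IP lies above total RNA in all 3 conditions for *RMRP*, *SNORD17*, *MALAT1*, *HIST1H1C*, *YLPM1*, *EIF2C2*, *TNRC6B* and *TNRC6A*, and below it for *DICER1*, *FN1*, *APOB*, *AFP*, *APOA1*, *RPL11* and *UBB*.

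The highest ratios belonged to small noncoding RNAs of the nucleus. *RMRP*, the RNA of RNase MRP that cuts ribosomal RNA precursors, had 1.96 RPKM (13 reads) in total RNA and 4826 RPKM in Ago2-IP, the highest value of that library. Its ratio was 2461 (1429 to 4239). The *miR-195* pair had 5.34 RPKM in total RNA and 5600 in Ago2-IP, and the *miR-497* pair 34.0 and 3511. Ago2-IP was higher in each pair, with log2 ratios of 12.88, 11.13 and 8.63. *RPPH1*, the RNA of RNase P that trims transfer RNAs, had 2.49 RPKM in total RNA and 170.9 in Ago2-IP (ratio 68.7). *TERC*, the telomerase RNA, was read only 2 times in total RNA and had a ratio of 28.7 (6.92 to 119). The list of these enzyme RNAs also held RNAs of small cytoplasmic particles and small nuclear RNAs. All 5 members above 0 in both libraries were higher, though *VTRNA1-2* and *VTRNA1-3* had 1 read each in total RNA. *VTRNA1-2* lay at 0.20 in the *miR-195* pair and was 0 in Ago2-IP of the *miR-497* pair. Another 4 members were above 0 in Ago2-IP alone, and 3 in neither.

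Small nucleolar RNAs (snoRNAs) guide the methylation (C/D box) or pseudouridylation (H/ACA box) of ribosomal RNA. Of 227 C/D snoRNAs listed, 121 were above 0 in both libraries, and 115 of these were higher and 0 lower (median log2 ratio 2.85). Of the 107 with at least 1 RPKM in total RNA, 101 were higher. A further 26 were above 0 in Ago2-IP alone and 2 in total RNA alone. *SNORD17* rose from 28.5 to 787 RPKM (ratio 27.6, 23.6 to 32.3). At the other end, *SNORD58B* had a ratio of 0.360 (60.03 to 21.6 RPKM) and *SNORD23* of 0.306, neither 2-fold from the median. Neither passed limma in the fit described, while *SNORD58B* was called higher without the condition block (adjusted p = 0.049) and at 1 RPKM or more (0.037), and *SNORD23* lower with a pseudocount of 1 (0.0085) and on RPKM as deposited (0.0027). The limma fit called 113 of 117 C/D snoRNAs higher and 0 lower.

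Of 100 H/ACA snoRNAs, 79 were above 0 in both libraries, 76 of them higher and 0 lower (median 3.17), or 50 of the 53 with at least 1 RPKM in total RNA. *SNORA74A* rose from 2.43 RPKM in total RNA to 151 in Ago2-IP (ratio 62.3, 35.2 to 110.5) and *SNORA63* from 11.4 to 111.8 (9.82, 6.99 to 13.8). *SNORA63* reached 1411 RPKM in Ago2-IP of the *miR-195* pair and 736 in that of the *miR-497* pair, where total RNA had 9.09 and 9.33. The median over the H/ACA list was 4.85 in the *miR-195* pair and 4.62 in the *miR-497* pair, and for C/D snoRNAs 2.39 and 3.62.

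The guide RNAs of Cajal bodies, which modify spliceosomal RNAs, had a median of 4.92, with 14 of 16 higher and 0 lower, or 6 of the 8 with at least 1 RPKM in total RNA. *SCARNA5* had 0.436 RPKM (3 reads) in total RNA and 254 in Ago2-IP, a ratio of 582 (187 to 1807), with 264 and 261 RPKM in the Ago2-IP libraries of the mimics. *SCARNA12* rose from 7.49 to 79.4 RPKM (10.6, 7.89 to 14.3). *SCARNA15* was the lowest (1.27 to 0.468 RPKM, log2 ratio 0.17). Over all genes annotated as snoRNA, 184 of 193 (95.3%) were higher and 0 lower.

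Most snoRNAs are cut from introns of other genes, and the spliced RNA of a host gene is a separate transcript. Of 11 measured snoRNA host genes, 2 were higher and 2 lower (median 0.52), where 22.7% and 19.8% of all genes lay so. *SNHG5* had 344 RPKM in total RNA and 49.6 in Ago2-IP (log2 ratio -1.18), *GAS5* 116 and 60.4 (0.67) and *SNHG3* 6.49 and 9.35 (2.14). Limma called 4 of the 11 higher and 3 lower, where 113 of 117 C/D and 68 of 68 H/ACA snoRNAs were called higher. The counting strand is not given in the sources used here, and reads of a snoRNA and of its host's intron cannot be told apart.

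Replication-dependent histones, whose messages end in a stem-loop and mostly carry no poly-A tail, had the highest median of the protein-coding lists. Of 66 histone genes listed, 31 were above 0 in both libraries, and all 31 were higher (median log2 ratio 5.56, or 5.94 in the *miR-195* pair and 3.79 in the *miR-497* pair). A further 12 were above 0 in Ago2-IP alone, 1 in total RNA alone and 22 in neither, and 8 of the 31 had at least 1 RPKM in total RNA. For the 7 of these 8 with an annotated transcript the median was 3.82. Most of the others were read few times in total RNA, so the median of 5.56 rests largely on values near the floor. *HIST1H1C*, a linker histone, rose from 5.58 to 25.7 RPKM (ratio 4.61, 3.69 to 5.77), and *HIST1H2BG* from 1.18 to 18.96 (16.05, 9.10 to 28.3). The lowest ratio belonged to *HIST2H2BE* (1.26 to 1.07 RPKM, log2 ratio 1.39), which on RPKM as deposited lay below 0 in limma (-0.25) and without the non-transfected pair had an adjusted p of 0.073. Limma called 30 of 30 higher. Histone genes are near-identical copies, and how reads shared by copies were counted is not given in the sources used here.

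snoRNAs, Cajal body RNAs, *RMRP*, *RPPH1*, *TERC* and these histone messages have in common that a poly-A tail is mostly absent or short-lived. A difference in poly-A selection between the libraries cannot be told apart from precipitation with Ago2 for these groups. The same limit holds for the miRNA genes, long noncoding RNAs and other lists below.

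Genes of miRNAs were also higher, though few were read. Of 799 listed, 43 were above 0 in both libraries, 40 of these higher and 0 lower (median 2.76), and 115 were above 0 in Ago2-IP alone against 27 in total RNA alone. Most rested on few reads, and 18 of the 43 had at least 1 RPKM in total RNA (15 of them higher). The sequenced reads were longer than a mature miRNA, so these values count longer RNA. Whether this was a miRNA precursor or another RNA of the same stretch, such as a snoRNA, was not tested. *MIR1248* had 27.0 RPKM in total RNA and 79.2 in Ago2-IP (ratio 2.94) and *MIR7-1* 1.10 and 7.56 (6.86, 1.97 to 23.9, from 3 and 14 reads). *MIR3648* was listed at 0 in all 3 total RNA libraries and had 93.4 RPKM (283 reads) in Ago2-IP of non-transfected cells but 5.30 and 1.04 with the mimics.

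Long noncoding RNAs were higher or near the median. *MALAT1*, kept in nuclear speckles, had 26.0 RPKM in total RNA and 527 in Ago2-IP (ratio 20.3). *NEAT1*, the scaffold of paraspeckles, had 54.1 and 123.6 (2.28, 2.20 to 2.37), and *KCNQ1OT1*, which acts on its imprinted neighbours, 1.05 and 16.4 (15.6). *TUG1* (48.1 and 26.2 RPKM, log2 ratio 0.74) and *DLEU1* (20.7 and 4.83, -0.48) were not 2-fold from the median. In the list, 7 of 11 were higher and 0 lower (median 1.49), and limma called 7 of 10 higher. On the scale of RPKM as deposited the list's median was -0.13, so its direction holds relative to the typical gene only. Over all genes annotated as long noncoding RNA, 232 of 430 (54.0%) were higher and 21 (4.88%) lower.

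Of 12914 protein-coding genes, 2442 (18.9%) were higher and 2738 (21.2%) lower. *YLPM1*, a nuclear protein that binds phosphatase 1, was the 1 protein-coding gene among the 10 highest ratios at 10 RPKM or more, with 13.4 RPKM in total RNA and 118 in Ago2-IP (8.80, 8.45 to 9.17, from 2690 and 16111 reads). In Ago2-IP it had 112 RPKM with *miR-195* but 19.4 with *miR-497*. The zinc finger (*ZNF*) genes, mostly transcription factors, had a median of 0.79, with 179 of 448 higher and 14 lower. *ZNF460* rose from 2.05 to 11.5 RPKM (ratio 5.64), and *ZNF207*, the most abundant, had 98.6 and 42.0 RPKM (log2 ratio 0.39). Against genes of the same length and expression class the *ZNF* median was 0.49, with 78 of 324 at least 2-fold above their class and 4 below, where 925 (8.98%) and 846 (8.21%) of all 10301 protein-coding genes lay so.

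**Figure D3:**
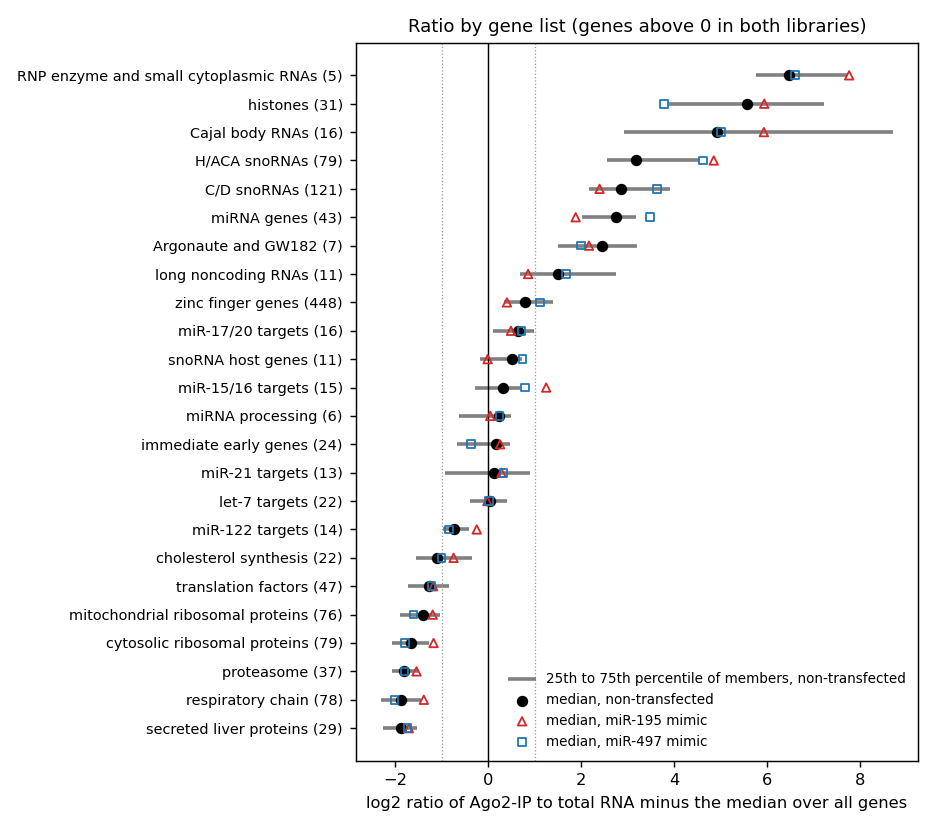
Median log2 ratio of Ago2-IP to total RNA for 24 gene lists, relative to the median over all genes, with the number of genes above 0 in both libraries in brackets, bars from the 25th to the 75th percentile of the members in non-transfected cells, and open symbols for the mimic pairs. Dotted lines mark 2-fold. In non-transfected cells 8 lists lie above the upper line and 7 below the lower line, and the mimic medians lie on the same side of 0 for all of these 15.

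On the lower side were lists of housekeeping complexes. Of 79 cytosolic ribosomal protein genes, 65 were lower and 6 higher (median -1.67). *RPS6*, of the small subunit, had 1384 RPKM in total RNA and 92.7 in Ago2-IP (ratio 0.0670), *RPL11* 1077 and 92.4 (0.0858, 0.0805 to 0.0915), and *RPL29* the lowest ratio, 0.0401 (0.0314 to 0.0513). The 6 higher ones were *RPL21*, *RPL36A*, *RPL7*, *RPS27*, *RPS28* and *RPS3A*, named after their values were seen. They had between 0.423 and 4.15 RPKM in total RNA, far below *RPS6*, and ribosomal protein genes have many near-identical copies in the genome, so their values are uncertain.

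Lower genes were also the majority among mitochondrial ribosomal proteins (62 of 76 lower, 0 higher, median -1.41) and the nuclear-encoded subunits of the respiratory chain and ATP synthase (68 of 78 lower, 2 higher, median -1.87). *ATP5B*, the catalytic subunit of ATP synthase, had 521 RPKM in total RNA and 39.2 in Ago2-IP (0.0753, 0.0711 to 0.0797). Proteasome genes (32 of 37 lower, 0 higher, median -1.81) and translation factors (30 of 47 lower, 0 higher, median -1.27) also lay low, with *PSMA6* at 342 and 23.1 RPKM and *EEF2*, the factor that moves the ribosome along, at 517 and 46.5. *EIF4G3* had the highest ratio of the translation factors (13.6 to 5.65 RPKM, log2 ratio 0.35). Limma called lower 61 of 78 cytosolic ribosomal, 69 of 76 mitochondrial ribosomal, 71 of 76 respiratory chain, 32 of 37 proteasome and 39 of 47 translation factor genes.

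Of the messages of secreted liver proteins, which are made on the endoplasmic reticulum, 24 of 29 were lower and 0 higher (median -1.87). *AFP* had 4884 RPKM in total RNA and 331 in Ago2-IP (ratio 0.0677), and in the mimic pairs 4477 and 446 (*miR-195*) and 4295 and 354 (*miR-497*). *APOA1*, the main protein of high-density lipoprotein, had 635 and 26.96 RPKM (0.0424, 0.0385 to 0.0468). *APOB*, the very long message of the low-density lipoprotein, had 1199 and 309 (0.258), a log2 ratio of -0.34, and did not pass limma (adjusted p = 0.36), though limma called it lower with a pseudocount of 1 (-1.01, adjusted p = 0.0035) and on RPKM as deposited (-1.95, 0.012). Cholesterol synthesis genes had a median of -1.10 with 15 of 22 lower, with *FDFT1* (squalene synthase) at 158 and 13.4 RPKM.

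Among single genes of at least 10 RPKM, the lowest ratio was that of *HNRNPH2*, a splicing factor (16.2 and 0.151 RPKM, ratio 0.00932), which has a close paralog and whose log2 ratio was -5.13 in non-transfected cells, -2.97 in the *miR-195* pair and -0.90 in the *miR-497* pair. *FABP1*, the liver fatty acid binding protein, followed (35.4 and 0.729 RPKM, 0.0206, 0.00921 to 0.0461, with 6 reads in Ago2-IP). *UBB* (ubiquitin) had 160 and 4.10 RPKM (0.0256, 0.0201 to 0.0326), *MIF* (a cytokine) 202 and 5.19, and *TPT1*, a highly translated tumor protein, 1951 and 66.7 (0.0342). These 5 lay below the median in all 3 pairs, as the rule that named them required.

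Ratios varied with transcript length and abundance. Over protein-coding genes above 0 in both libraries, the ratio rose with transcript length (Spearman 0.39 over 12914 genes), and among those of at least 1 RPKM in total RNA the correlation was 0.53 (10301 genes). These were put into 10 classes of equal size by length. In the shortest, up to 1292 bases, the median log2 ratio was -1.42, with 68.8% lower and 3.39% higher. In the longest, from 7560 bases, it was 0.58, with 3.98% lower and 29.8% higher. For the *miR-195* pair the end classes had -0.97 and 0.34, and for the *miR-497* pair -1.70 and 0.80. Coding length (0.48), 5′UTR length (0.31), 3′UTR length (0.33), number of exons (0.31) and genomic span (0.41) went the same way.

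The level of a gene was taken from the total RNA of the transfected cells, since total RNA of non-transfected cells is itself in the ratio. For the mimic pairs this level comes from the total RNA in their own ratios, so any fall of these with level is partly built in. In 10 classes the median went from 0.42 in the least to -1.50 in the most abundant (Spearman -0.52 over 10301 genes). With 5 classes of each, the median among the most abundant genes was -1.71 for the shortest and -0.37 for the longest transcripts, and among the least abundant -0.15 and 0.79. Within these classes of length and level, the medians of the low lists were nearer 0, at -0.18 for cytosolic ribosomal proteins, -0.15 for mitochondrial ribosomal proteins, -0.37 for the proteasome, -0.41 for the respiratory chain and -0.60 for secreted liver proteins. Histones lay at 4.11 (7 genes).

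For G+C content the 3 pairs differed in direction. The Spearman correlation with the G+C share of the transcript was -0.15 in non-transfected cells, 0.12 in the *miR-195* pair and -0.46 in the *miR-497* pair. The median of the G+C-richest of 10 classes was -0.53, -0.06 and -1.41 in the same order, and that of the poorest -0.15, -0.44 and 0.29.

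**Figure D4:**
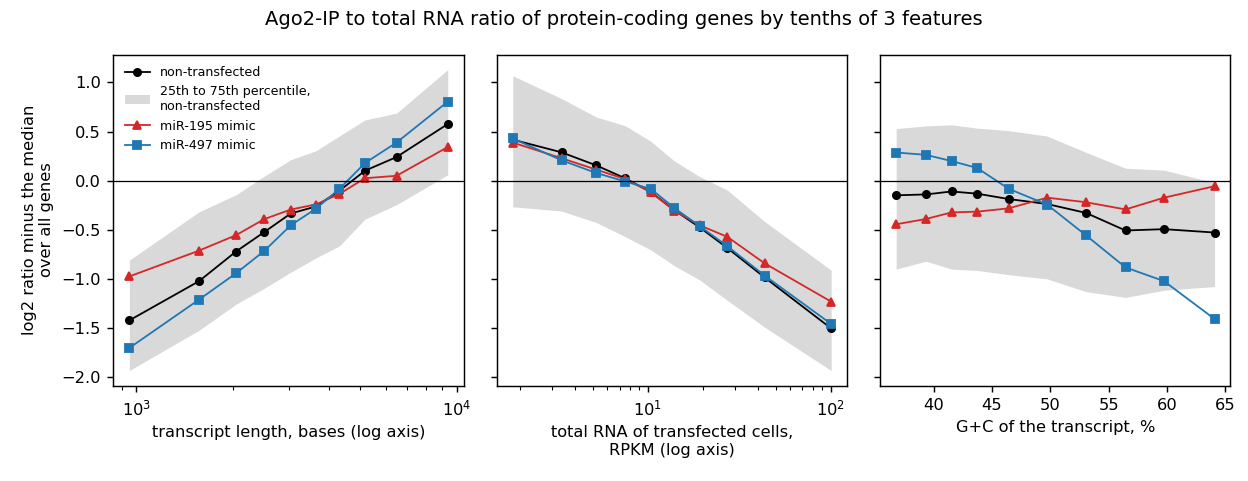
Median log2 ratio of Ago2-IP to total RNA, relative to all genes, of protein-coding genes with at least 1 RPKM in total RNA, in 10 classes of transcript length, of level in the total RNA of transfected cells (both log axes) and of G+C share, with 1 line a condition and the 25th to 75th percentile of non-transfected cells in grey. The length and level lines run the same way in all 3 conditions, from -1.42 to 0.58 and from 0.42 to -1.50 in non-transfected cells, and the G+C lines part. The level lines of the mimic pairs are no separate check, since their ratios hold the same total RNA.

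Seed sites were searched as the 7 bases that pair with the seed on the message strand of any 3′UTR annotated for 12895 genes (GENCODE release 44 lifted to GRCh37). Because long 3′UTRs hold more sites and had higher ratios, ratios were first centred within classes that share 3′UTR length and base composition. Of 27 miRNAs known from hepatoma cells or broadly expressed, genes with the site lay above genes without it for 26, and of 10 known mainly from other tissues for 10. Of all 15005 words of 7 bases ranked, 69.5% also had a difference above 0, with a median of 0.01, so the direction alone is not particular to these sites. The median difference was 0.04 and 0.03 log2 units, and most differences lay inside the middle 95% of all words (-0.07 to 0.11). *miR-130a* and *miR-124* were also on the list and have no value here.

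The *miR-17/92* cluster led. The site of *miR-19b*, TTTGCAC, gave a difference of 0.19 (2208 genes with it, 17.1% of all, and 10687 without) and ranked 30 among all words. That of *miR-92a*, GTGCAAT, gave 0.16 (1850 genes, 14.3%, rank 109) and that of *miR-17*, GCACTTT, 0.11 (3633 genes, 28.2%, rank 480). *miR-18a*, the fourth seed of the cluster, gave 0.06 (rank 2029). In the mimic pairs the *miR-19b* word ranked 26 and 104, the *miR-92a* word 295 and 49, and the *miR-17* word 565 and 618. With an A after the site, the differences were 0.23 for *miR-19b*, 0.39 for *miR-92a*, 0.33 for *miR-17* and 0.14 for *miR-18a*. The median with that A was 0.099 over the broad miRNAs and 0.058 over those of other tissues, where *miR-155* had 0.17. Words of this greater length were not ranked, so no band is given for them. Genes of the same libraries are not replicates, so these differences are descriptions. The words of *miR-19b* and *miR-17* can overlap through GCAC.

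Counting the 4 seeds of the cluster together, a summary chosen after the single values were seen, the centred median was -0.09 for 6854 genes with no such site, 0.03 with 1 kind of site (3677 genes), 0.10 with 2 (1655), 0.20 with 3 (607) and 0.24 with all 4 (102). The share of genes lower by 2-fold before centring went from 27.97% to 4.90% and that of higher ones from 17.2% to 29.4%. These shares also follow 3′UTR length, since long 3′UTRs hold more sites and had higher ratios. The summary uses the same genes and ratios as the single differences above, so it is no separate support. No other set of words was counted beside it. The order of the centred medians up to 3 kinds of site was also seen in the *miR-195* pair (-0.11, -0.0024, 0.05, 0.12, then 0.21 with 4) and in the *miR-497* pair (-0.11, 0, 0.07, 0.22), where the class with 4 kinds lay at 0.15.

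Single sites show what these words look like in a message. Each was taken from the most abundant gene kept that held it and lay at least 2-fold above the median in all 3 pairs. Genes of a chromosome left out of this choice, genes already shown and sites near a 3′UTR end or across an exon border were passed over. The site is in capitals on the plus strand, which is that of all 4 genes (GRCh37). *ARHGAP5* carried a *miR-19b* site at chr14:32625287-32625309 and had 50.5 RPKM in total RNA and 36.9 in Ago2-IP (ratio 0.730, log2 ratio 1.16 relative to the median). *FNDC3B* carried a *miR-92a* site at chr3:172115982-172116004 (37.3 and 37.01 RPKM, 1.61). *TXNIP*, an inhibitor of thioredoxin, carried a *miR-17* site at chr1:145441999-145442021 (34.7 and 34.5 RPKM, 1.61). *NFATC3*, a transcription factor of the NFAT family, carried a site for *miR-16*, *miR-195* and *miR-497* at chr16:68260654-68260676 (39.998 and 40.1 RPKM, 1.62). A match is no evidence that the site is bound.

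ARHGAP5: aaatccaaaatggctTTTGCACc
FNDC3B: ctttaagagggcattGTGCAATa
TXNIP: aaggtgatgttcttaGCACTTTa
NFATC3: ctcttgtttccgaggTGCTGCTt

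The site shared by *miR-16* and both mimics, TGCTGCT, had other ranks in each pair. In non-transfected cells 3601 genes with it (27.9%) lay 0.03 above the 9294 without it, and the word ranked 5048 of 15005. In the *miR-195* pair the difference was 0.18 and the word ranked 15, and in the *miR-497* pair it was 0.11 and the rank 381. The word of *miR-103a*, ATGCTGC, which can overlap it in all but 1 base of a message, had differences of 0.08, 0.13 and 0.06. The mimic pairs differ from the non-transfected pair in both libraries, and with 1 pair each these shifts have no replicate check.

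Other sites had smaller differences than those of *miR-19b*, *miR-92a* and *miR-17*, though several lay above *miR-18a* of the same cluster. *miR-21* gave 0.10 (1443 genes, rank 557), *miR-181a* 0.09 (rank 727) and *miR-122* 0.07 (1318 genes, rank 1552). let-7a gave 0.04 (1666 genes, rank 4098), *miR-155*, known from blood cells, 0.07, and *miR-31* -0.02 (rank 12614). The difference of the liver's leading miRNA was thus the same, to 2 decimals, as that of a blood cell miRNA. How much of either miRNA these HepG2 cells held was not looked at here.

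**Figure D5:**
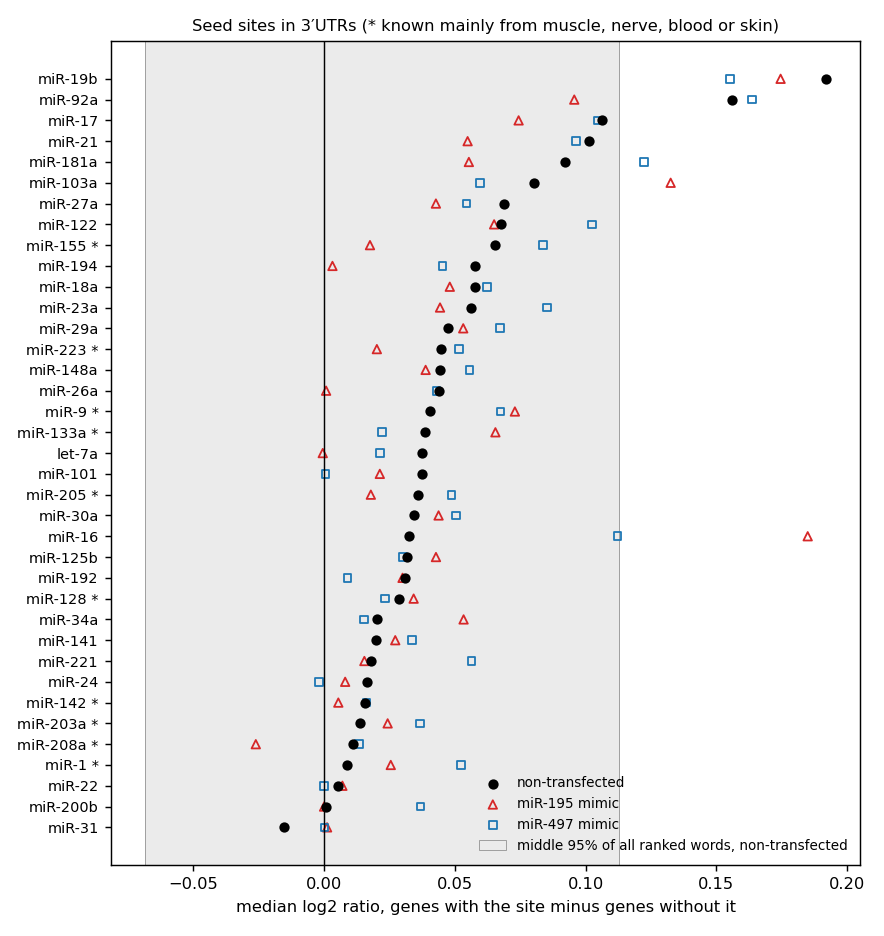
Difference in median log2 ratio between genes with and without the 7-base seed site in a 3′UTR, after centring on the length and base composition of the 3′UTR, for 37 miRNAs in 3 conditions. The grey band is the middle 95% of all words in non-transfected cells, and in that condition 2 miRNAs, *miR-19b* and *miR-92a*, lie beyond it while *miR-16* moves from 0.03 to 0.18 in the *miR-195* pair and 0.11 in the *miR-497* pair.

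Listed targets of single miRNAs lay on both sides of the median. The *miR-15/16* list held *CCNE1*, *CDC25A*, *CCND3*, *CDK4* and *BTRC*, which the study identified as targets partly from these same libraries. Its score divides the ratio with a mimic by the ratio of non-transfected cells. The values of that list are therefore not independent of how these members were chosen. Of 16 *miR-17/20* targets 4 were higher and 1 lower (median 0.63), of 15 *miR-15/16* targets 3 and 1 (0.32), of 13 *miR-21* targets 2 and 3 (0.13), of 22 let-7 targets 2 and 3 (0.03), and of 14 *miR-122* targets 0 and 3 (-0.74). The share over all genes was 22.7% higher and 19.8% lower. Within the classes of length and level, *miR-17/20* targets lay at 0.51 (16 genes), *miR-15/16* at 0.30 (13) and *miR-21* at 0.78 (11). There let-7 targets lay at 0.18 (22 genes) and *miR-122* targets at -0.02 (14). *WEE1*, a kinase that holds cells before mitosis and a *miR-15/16* target, had 14.8 RPKM in total RNA and 14.8 in Ago2-IP (ratio 1.002, 0.925 to 1.09), a log2 ratio of 1.62. With the mimics its total RNA was 5.6 and 7.31 and its Ago2-IP 14.5 and 7.79 RPKM (log2 ratios 2.46 and 2.03). *CDK6*, a G1 kinase, had 52.3 and 23.7 RPKM (0.47, and 1.25 and 1.40 with the mimics). *BTG2*, an antiproliferative gene listed as a *miR-21* target, had 2.61 and 3.90 RPKM (log2 ratio 2.20). *HMGA2*, a chromatin protein and let-7 target, had 117 and 28.7 (-0.41), and *ALDOA*, a glycolytic enzyme listed for *miR-122*, 263 and 15.4 (-2.47). Immediate early genes, with short-lived messages, were also on both sides (3 of 24 higher, 3 lower, median 0.17), with *MYC* at 75.1 and 12.9 RPKM (-0.93), called lower by limma over the 3 pairs (adjusted p = 0.012) but not without the non-transfected pair (0.11) or the *miR-497* pair (0.057).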

How the data were processed

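RNA from Ago2-IP and total RNA of HepG2 cells was sequenced in 6 libraries, 1 of each for 3 conditions. Per the study's methods, single-end reads of 36 bases were aligned to the hg19 genome by ELANDv2. The deposited values are RPKM, which the authors computed for each gene with CASAVA 1.7. The gene annotation, read filters and strand setting are not given in the sources used here. Symbols listed more than once (28) were averaged. Members, gene lists and tests were chosen with earlier results of these data known.

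Ratios of Ago2-IP to total RNA had no pseudocount and were centred on their median over genes above 0 in both libraries. Whole reads were inferred from RPKM steps for 12698 of 15487 genes tried (82.0%), where values lay within 0.02 of whole numbers and the implied length within 1.5-fold of a transcript. The deposited files give no depth. The steps put it at about 24800149 mapped reads in total RNA and 16876177 in Ago2-IP of non-transfected cells, and between 10688811 and 31045309 in the other libraries. Symbols were matched to GENCODE release 44 on GRCh37 directly (18208) or by an older name from RefSeq (2964). Site differences used 10 classes of 3′UTR length with 5 of A+U content and words in at least 200 genes. Limma used genes above 0 in all 6 libraries, the condition as block and a prior variance trend. Per the study, Ago2-IP and total RNA of a condition came from the same samples, so the block pairs them. Deviations of the paired libraries from their group means correlated at 0.44 (non-transfected), 0.03 (*miR-195*) and -0.48 (*miR-497*) over 10820 genes.

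Named genes were the 10 highest and 10 lowest ratios on the same side in all 3 pairs at 1 and at 10 RPKM in total RNA, the 10 highest RPKM in Ago2-IP, *EIF2C2*, and in each list the 3 most abundant and the highest and lowest ratio. Some genes outside this rule were named after their values were seen. They were the other members of the 2 silencing lists, *KCNQ1OT1*, *SCARNA15*, *TERC*, *VTRNA1-2*, *VTRNA1-3*, *MIR3648*, *ACTA2*, *LYZ* and 5 ribosomal genes. Procedures were tested on simulated data. Alternatives were pseudocounts, minimum RPKM, other centring, other fold limits, site definitions and the mimic pairs. Python 3.11.15, numpy 2.4.6, pandas 2.3.3, scipy 1.17.1, matplotlib 3.10.9, R 4.3.3 and limma 3.58.1 were used.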

Additional observations from a re-analysis of the deposited data

How the results depend on the processing

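Values without a test were compared with the SD among the 3 library pairs. The median log2 ratio (-1.62) was -0.88 with a pseudocount of 1 and -1.09 in the *miR-195* libraries. The 3206 higher genes became 1525 with a pseudocount of 1, 944 as deposited and 1566 at 4-fold. With both the minimum and the median set over genes of at least 1 RPKM in total RNA they were 1810, and over genes of at least 1 in both 1610. The 2785 lower genes became 1853 and 1629 under those changes of both minimum and median, 9745 as deposited, 1825 relative to protein-coding genes and 481 at 4-fold. With the median over all genes kept, the minimum of 1 RPKM in total RNA left 1258 higher and 2646 lower. The 7 lists below 2-fold became 14 as deposited and 0 at 4-fold. The median of long noncoding RNAs turned to -0.13 as deposited.

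In limma, higher genes (3110) numbered 6263 and 7787 with pseudocounts of 0.1 and 1, 643 as deposited and 1781 without the non-transfected pair, and lower genes (3593) 5757 with a pseudocount of 1, 9791 as deposited and 2055 without that pair. Without the condition block, which pairs the libraries of a condition, 3281 were higher and 3698 lower. RPKM as deposited turned *AXIN2* (-0.57), *CDK6* (-0.51), *DICER1* (-0.73), *EIF2C1* (-0.61), *HIST2H2BE* (-0.25), *IGF1R* (-0.90), *MRPS25* (-0.76), *NR6A1* (-0.54), *SNORD80* (-0.21), *TGFBR2* (-0.83), *TUG1* (-0.87), *ZBTB4* (-0.38) and *ZNF518A* (-0.68).

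The median site difference of broad miRNAs (0.04) was 0.099 with 8 bases, 0.019 with 6, 0.037 in the longest 3′UTR, 0.292 without centring, 0.056 at 1 RPKM and 0.054 in the *miR-497* libraries. For miRNAs of other tissues (0.03) it was 0.058, 0.020, 0.017, 0.286 and, in the *miR-497* libraries, 0.043. The correlation with transcript length was 0.53 at 1 RPKM and 0.32 in the *miR-195* libraries, and that with G+C was 0.12 in the latter. The cause of these changes was not tested. With 1 library a side, the values above carry no variation between cultures.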
